A study of Mus musculus with 2 samples.

Results

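The genes described here are the carriers of amino acids and small peptides that belong to the solute carrier families Slc1, Slc3, Slc6, Slc7, Slc15, Slc36, Slc38 and Slc43. They were chosen by name alone, as every gene of these 8 families that the array annotates with a symbol ending in a number. The rule found 64 genes with 114 probes. Of these genes, 54 were measured, meaning that the scanner software marked a probe as well above background on both arrays in at least 1 and the same genotype, and all 54 met this in both genotypes. On the whole array 18988 genes or unnamed probes passed that filter.

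The RNA came from the intestine of male mice, 20 weeks old and fed a normal diet, of 2 genotypes. One was wild type. The other lacked GDE5, the product of Gpcpd1, in the gut only. This enzyme releases choline from glycerophosphocholine. The labels do not name the promoter or allele that removed the gene, nor the stretch of intestine taken. The number of mice is stated as 5, but the sources used here do not say whether animals were pooled or whether both arrays carry the same RNA extracts. Both genotypes were put on each of 2 dual-colour Agilent arrays with swapped dyes. Knockout RNA was in the Cy3 channel of replicate 1 and in the Cy5 channel of replicate 2.

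Dietary protein reaches the gut epithelium as free amino acids and as di- and tripeptides. Carriers in the brush border, the apical membrane that faces the lumen, take these up with sodium, protons or in exchange for other amino acids. A second set in the basolateral membrane passes amino acids on to the blood, and further members serve the lysosome, the supply of growing cells or the clearance of neurotransmitters. Several carriers work only as a pair of a light chain that transports and a heavy chain that brings it to the membrane, and some carriers are induced through the factor ATF4 when cells run short of amino acids.

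Knockout and wild type below stand for the RNA so labelled. Each ratio is a log2 ratio of knockout over wild type, given for replicate 1 and then replicate 2, and as the mean ± SD of both arrays (n = 2). With only 2 hybridisations, whose spread may be technical, all p-values and intervals are imprecise. The transcript of Gpcpd1 was measured at 0.28 and 1.08, and so no loss of it was seen. Which exons were deleted is not stated in the labels, and its probe may check nothing. Every direction below therefore rests on the dye labels. Over all genes, ratios of replicate 1 and replicate 2 had a correlation of -0.38 after loess normalisation. It was -0.02 in the processed ratios of the scanner software and -0.50 with median centring. Such a correlation is a description across genes that share both arrays. Spots well above background made up between 69.3% and 76.1% of spots in each channel. Markers of the intestinal epithelium were measured for 11 of 11 genes on the list. In RNA of a whole tissue, fewer cells of a type and less RNA per cell cannot be told apart.

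No carrier differed between the genotypes in limma's test of the mean ratio with Benjamini-Hochberg adjustment over all 18988 genes. The test called 0 of the 54 measured carriers and 0 genes in all (0%), with a smallest adjusted p of 0.453. At an unadjusted p under 0.05 it passed 236 genes (1.24%) and 0 carriers. A difference of 1.5-fold or more that pointed to one genotype on both arrays was found for 0 carriers, beside 0.216% of all genes. At 1.3-fold or more it was found for 0 carriers too, beside 0.743% of all genes.

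The size of the changes that these arrays leave possible differed between carriers and between ways of processing. After loess normalisation the 95% interval of the mean ratio held 0 for all 54 measured carriers. It reached between 0.376 and 0.971 to either side of the mean on the log2 scale, with a median of 0.429. For 20 of the 54 this loess interval also held a 1.5-fold change in one or the other direction. In the processed ratios of the scanner software the interval left out 0 for 5 carriers, with no adjustment for the number of genes. The limits nearer 0 were 0.38 for Slc1a2, 0.12 for Slc36a4, -0.14 for Slc38a3, -0.15 for Slc6a18 and -0.18 for Slc6a14. A p that misses the threshold does not show that the levels were alike, since in simulated data on 19006 genes limma recovered 0 of 200 genes changed 2-fold.

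Most carriers pointed opposite ways on the arrays. Replicate 1 and replicate 2 differed in sign for 36 of the 54 (66.7%), beside 64.9% of all genes. Ratios were below 0 on both arrays for 13 carriers (24.1%), beside 18.1% of all genes, and above 0 on both for 5 (9.26%), beside 16.9%. Counted among the 13 are Slc38a11 and Slc7a4, whose ratios in replicate 2 round to 0.00. The median ratio of the carriers was -0.03, with 0.00 in replicate 1 and -0.10 in replicate 2, and that of all genes was -0.01. The median SD between the arrays was 0.21 for the carriers and 0.17 for all genes. The 36 carriers of opposite sign were high in replicate 1 for 22 genes and high in replicate 2 for 14. A difference of 1.3-fold or more that pointed to one dye on both arrays was found for 4 carriers (7.41%), beside 6.96% of all genes.

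**Figure D1:**
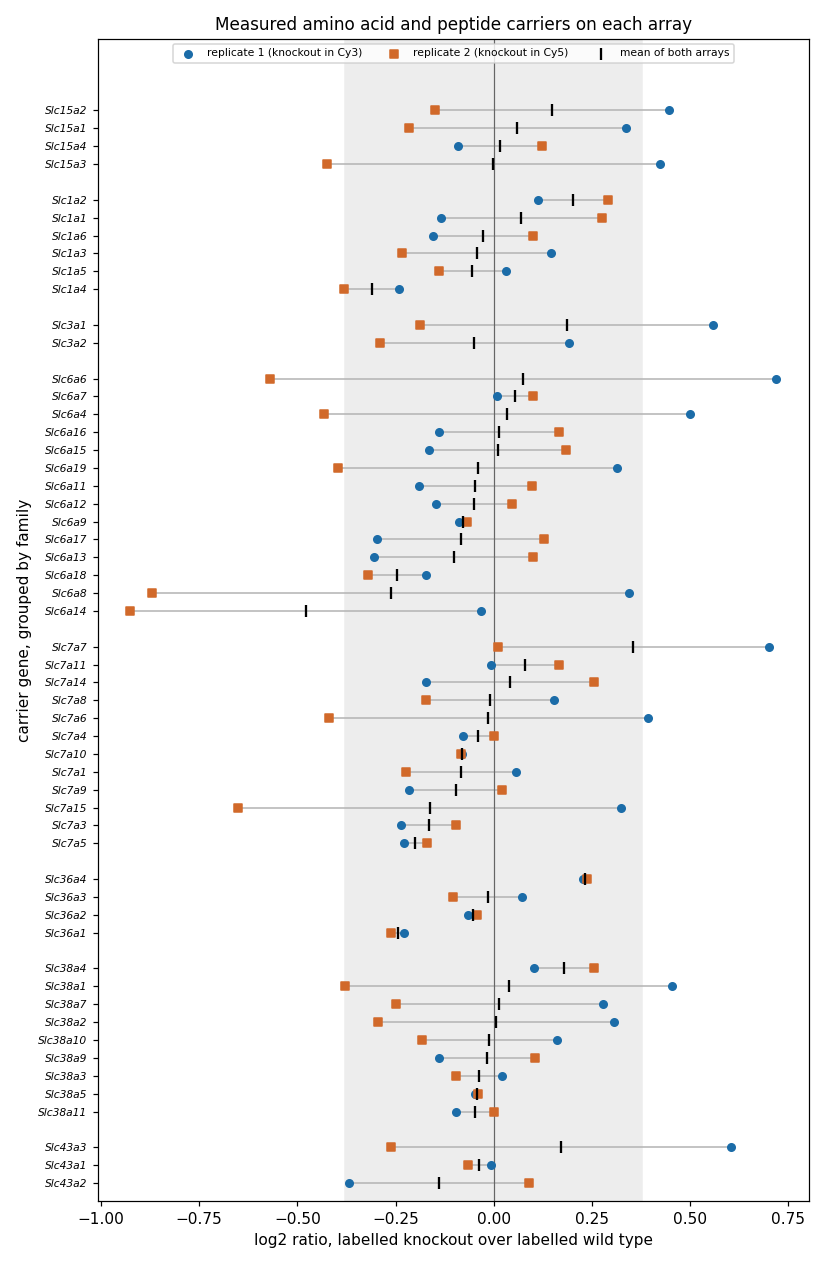
Log2 ratio after loess of knockout over wild type, by label (x axis) for the 54 measured carriers (y axis, grouped by family and ordered by mean within a family). Circles are replicate 1, squares replicate 2, ticks the mean of both, and the grey band spans a 1.3-fold difference either way. In no carrier do both points lie beyond the same edge of the band, and Slc6a14 has the lowest and Slc7a7 the highest mean, at -0.48 and 0.36.

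The 54 carriers lay within the bulk of all genes when replicate 1 was set against replicate 2. Many genes, carriers such as Slc6a6 and Slc6a8 included, fell in the quadrant above 0 in replicate 1 and below 0 in replicate 2, where the Cy3 channel is the brighter on both arrays after loess.

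**Figure D2:**
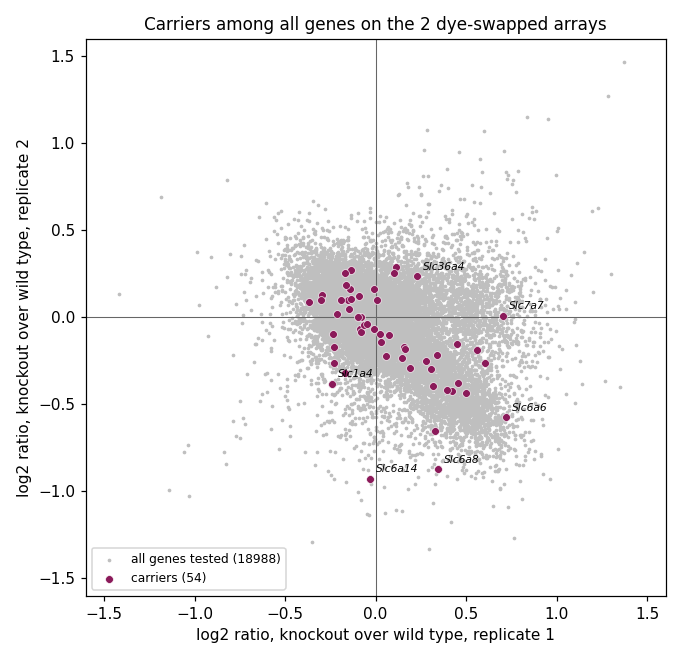
Log2 ratio after loess in replicate 1 (x axis) against replicate 2 (y axis), knockout over wild type by label. Grey points are all 18988 genes measured and red points the 54 carriers, and 8 genes lie outside the axes. The cloud runs from upper left to lower right, and Slc6a14 lies at its lower edge.

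By family, the means of Slc6 ran from -0.48 to 0.07 over 14 measured genes of 18, with 1 above 0 on both arrays, 3 below 0 on both and 10 of opposite signs. Those of Slc7 ran from -0.20 to 0.36 over 12 genes of 15, with 1, 4 and 7 in the same order. Slc38 ran from -0.05 to 0.18 over 9 genes of 10, with 1, 2 and 6, and Slc1 from -0.31 to 0.20 over 6 genes of 7, with 1, 1 and 4. No family therefore pointed one way as a whole. Beside these counts, and the loess counts of the lists below, stand 16.9%, 18.1% and 64.9% of all genes in the same order.

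The smaller families were Slc36 with 4 genes, Slc15 with 4 measured of 5, Slc43 with 3 and the heavy chains Slc3 with 2. Slc36 had the smallest median SD between the arrays of the 8, at 0.02, and 3 of its 4 genes kept a sign. Slc15 and Slc3 had the largest, at 0.41 and 0.43, and none of their genes kept a sign. In Slc43 the sign was kept by 1 gene of 3, Slc43a1.

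Peptide carriers form the Slc15 family. Slc15a1, or PEPT1, is the proton-coupled carrier that takes up di- and tripeptides from the gut lumen. Its ratio was 0.34 in replicate 1 and -0.22 in replicate 2, a mean of 0.06 ± 0.39. Its processed intensities were 2410 for knockout and 2330 for wild type in replicate 1, then 2480 and 2660 in replicate 2. The knockout spot was thus the brighter on one array and the dimmer on the other. Slc15a2, or PEPT2, a carrier of higher affinity known best from the kidney, had ratios of 0.45 and -0.15, a mean of 0.15 ± 0.42. A second, dimmer probe of Slc15a2 had a mean of -0.06.

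The remaining measured members of this family, Slc15a3 and Slc15a4, carry peptides and histidine across lysosomal membranes, mainly in immune cells. Slc15a3 had ratios of 0.42 and -0.43, which made it one of the 4 carriers past 1.3-fold in the direction of a dye. Slc15a4 had ratios of -0.09 and 0.12. Each of the 4 measured members thus had opposite signs on the arrays, and the probe of Slc15a5 was not well above background.

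Brush border carriers of free amino acids made up a list of 8 genes, all of them measured. Of these, 0 had ratios above 0 on both arrays, 2 were below 0 on both and 6 had opposite signs, with a median of -0.05. The values of the main sodium-dependent carrier of neutral amino acids, Slc6a19 or B0AT1, were 0.32 and -0.40, a mean of -0.04 ± 0.50. Its deposited processed ratios pointed the other way, at -0.22 and 0.06.

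Slc7a9 and Slc3a1 are the light and heavy chain of the carrier that takes up cystine and basic amino acids. Slc7a9 had ratios of -0.21 and 0.02, a mean of -0.10 ± 0.17. Slc3a1 had ratios of 0.56 and -0.19, a mean of 0.19 ± 0.53. Neither chain kept a sign on both arrays after loess. In the processed ratios Slc7a9 was below 0 on both, at -0.07 and -0.15, and Slc3a1 again had opposite signs.

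Slc1a1, a carrier of glutamate and aspartate, had ratios of -0.13 and 0.28. Slc1a5, or ASCT2, an exchanger of glutamine and other neutral amino acids, had ratios of 0.03 and -0.14. Slc6a6, the taurine carrier, had the widest spread of all 54, with ratios of 0.72 and -0.57 and a mean of 0.07 ± 0.91. Its knockout channel was the brighter in replicate 1 and the dimmer in replicate 2.

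Slc6a14 and Slc36a1 were the brush border carriers with ratios below 0 on both arrays. Slc36a1, or PAT1, moves proline, glycine and alanine together with protons. Its processed intensities were 1040 for knockout and 1140 for wild type in replicate 1, then 993 and 1150 in replicate 2. The knockout spot was the dimmer on both arrays, and the ratios were -0.23 and -0.26, a mean of -0.24 ± 0.02 with a 95% interval of -0.62 to 0.13. The gene was not called by limma (Benjamini-Hochberg adjusted p = 1).

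Slc6a14, or ATB0,+, takes up both neutral and basic amino acids and lies on the X chromosome. It had the lowest mean of all 54 carriers in the loess ratios, while Slc6a18 was the lower in the processed ratios, at -0.60. The brighter of its probes, A_51_P136188, is placed by the array's design at chrX:21314461-21316644 on mm9. Its processed intensities were 2940 for knockout and 4140 for wild type in replicate 1, then 2910 and 4690 in replicate 2. The knockout spot was the dimmer on both arrays.

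After loess normalisation the ratios of that probe were -0.03 and -0.93, a mean of -0.48 ± 0.63 with a 95% interval of -1.20 to 0.25, so the lower mean rested on replicate 2. In the processed ratios of the scanner software it had -0.49 and -0.69, a mean of -0.59 ± 0.14. The second probe, A_52_P501816 at chrX:21318999-21319058, lay below 0 on both arrays too, at -0.23 and -0.54, while its processed ratios of -0.79 and -0.14 rested on replicate 1. For single spots the deposited p of the scanner software was 0.0186 and 0.00122 at the first probe, and 0.000265 and 0.478 at the second. These p-values describe one spot on one array and not the animals. limma called the gene with neither kind of ratio, at a Benjamini-Hochberg adjusted p of 1 and of 0.508, which are also the ends of its range over the alternatives.

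**Figure D3:**
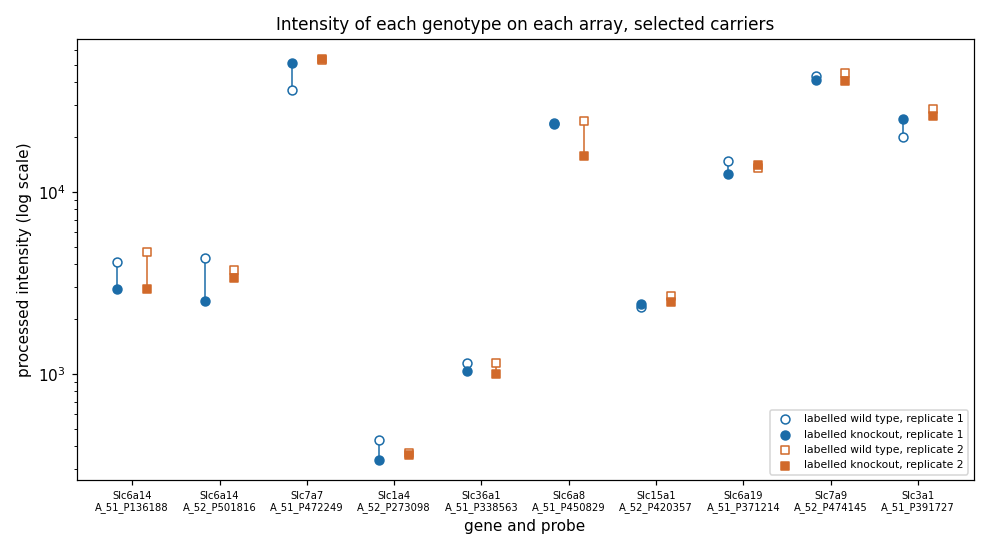
Processed intensity (y axis, log scale) of knockout (filled) and wild-type RNA (open), by label, in replicate 1 (circles) and replicate 2 (squares) for 10 probes of selected carriers (x axis); a line joins the genotypes of one array. The points are to be compared within a probe, since probes differ in brightness for the same amount of RNA. The knockout point of Slc6a14 lies below the wild-type point on both arrays at both probes. The gap is widest at 2510 against 4340 and narrowest at 3350 against 3700. The genotypes of Slc7a7 lie apart in replicate 1 and nearly level in replicate 2.

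Basolateral carriers made up another list of 8 measured genes, of which 1 had ratios above 0 on both arrays, 2 were below 0 on both and 5 had opposite signs. The median was -0.04. Slc7a7, or y+LAT1, the light chain that exports basic amino acids into the blood, had the highest mean of all 54 carriers in the loess ratios. In the processed ratios Slc1a2, Slc36a4 and Slc38a4 exceeded it. Its processed intensities were 51100 for knockout and 36200 for wild type in replicate 1, then 53800 and 53200 in replicate 2. The genotypes were apart in replicate 1 and nearly level in replicate 2. The ratios were 0.70 and 0.01, a mean of 0.36 ± 0.49 with a 95% interval of -0.25 to 0.96, so the higher mean rested on replicate 1.

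Slc3a2, or 4F2hc, the heavy chain that Slc7a7 and several other light chains need, had ratios of 0.19 and -0.29, a mean of -0.05 ± 0.34. Slc7a8, or LAT2, an exchanger of neutral amino acids, had ratios of 0.15 and -0.17. Slc7a6, or y+LAT2, a close relative of Slc7a7, had ratios of 0.39 and -0.42 and was another of the carriers past 1.3-fold in the direction of a dye. Of the light chains on this list only Slc7a7 kept a sign on both arrays, and its heavy chain did not. Slc7a5, another partner of Slc3a2, is given with the shortage list below.

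Slc43a1 and Slc43a2, or LAT3 and LAT4, let branched-chain and aromatic amino acids leave the cell. Slc43a1 had ratios of -0.01 and -0.06. Slc43a2 had ratios of -0.37 and 0.09, and its second probe pointed the other way, with a mean of 0.21. The glutamine carriers Slc38a3 and Slc38a5, or SNAT3 and SNAT5, had means of -0.04 ± 0.08 and -0.04 ± 0.0046. In the processed ratios the means were -0.57 and -0.39. Their spots were close to background, with processed intensities between 17.5 and 31.8 for Slc38a3.

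Carriers known to be induced by amino acid shortage made up a list of 8 measured genes, with a median of -0.08. None had ratios above 0 on both arrays, beside 16.9% of all genes. Below 0 on both were 4, beside 18.1%, and 4 had opposite signs, beside 64.9%. The 4 below 0 on both arrays were Slc1a4, Slc7a5, Slc7a3 and Slc6a9. limma called none of the 8. This list, like the others, was chosen with earlier results of these data known, so its counts are a description and no test. With the scanner software's ratios 4 were below 0 on both arrays too, beside 21.1% of all genes, with Slc7a1 in place of Slc6a9.

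Slc1a4, or ASCT1, an exchanger of alanine, serine and cysteine, had ratios of -0.24 and -0.38, a mean of -0.31 ± 0.10 with a 95% interval of -0.70 to 0.08. Its processed intensities were 336 and 431 in the knockout and wild-type channel of replicate 1, and 359 and 368 in replicate 2. The knockout spot was the dimmer on both arrays, with a small gap in replicate 2. In the processed ratios of the scanner software Slc1a4 had -0.36 and -0.04, a mean of -0.20 ± 0.23, so that lower mean rested on replicate 1. A second probe also lay below 0 on both arrays, with a mean of -0.13.

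Slc7a5, or LAT1, which exchanges glutamine for large neutral amino acids and pairs with Slc3a2, had ratios of -0.23 and -0.17, a mean of -0.20 ± 0.04 with a 95% interval of -0.58 to 0.18. Its processed intensities were 253 and 321 in replicate 1 and 259 and 304 in replicate 2, with the knockout the dimmer on both arrays. Slc7a3, or CAT3, a carrier of basic amino acids, had ratios of -0.24 and -0.09, a mean of -0.17 ± 0.10. The spots of Slc7a3 were dim, with processed intensities between 62.9 and 84.4. Slc6a9, or GlyT1, a glycine carrier, had ratios of -0.09 and -0.07.

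The other members of this list kept no sign. Slc38a2, or SNAT2, a sodium-coupled carrier of neutral amino acids, had ratios of 0.31 and -0.29. Slc7a1, or CAT1, the widespread carrier of basic amino acids, had ratios of 0.06 and -0.22. Slc7a11, or xCT, which exchanges glutamate for cystine, had ratios of -0.01 and 0.17.

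The promoters of these carriers were searched for the amino acid response motif, TGATGNAA, which the factor ATF4 is known to bind together with C/EBP partners. The search covered both strands of RefSeq promoter windows on GRCm38.p6, each from 250 bases before to 50 bases after a gene's start, counted overlaps with no other motif, and found windows for 45 of the 64 carriers. The motif was present for 4 carriers (8.89%), Slc15a5, Slc1a4, Slc7a11 and Slc7a7, beside 4.51% of all 27025 genes with a window. Of the carriers induced by shortage it was present in 2 of the 6 with a window, Slc1a4 and Slc7a11, and of the amino acid response genes in 9 of 19 (47.37%). Among the brush border carriers with a window it was present in 0 of 6.

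Stretches of 170 bases are shown that set the carriers of that list that hold the motif beside Slc6a14, which has none. Each runs 5′ to 3′ on the gene's strand from 150 bases before to 20 bases after its start, and capitals mark the motif or its reverse complement. They lie at chr11:20332694-20332863 on the minus strand (Slc1a4), chr3:50443594-50443763 on the minus strand (Slc7a11) and chrX:21714750-21714919 on the plus strand (Slc6a14).
Slc1a4: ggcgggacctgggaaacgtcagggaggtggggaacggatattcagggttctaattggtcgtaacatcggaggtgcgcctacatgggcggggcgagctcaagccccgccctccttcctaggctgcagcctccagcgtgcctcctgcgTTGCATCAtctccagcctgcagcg
Slc7a11: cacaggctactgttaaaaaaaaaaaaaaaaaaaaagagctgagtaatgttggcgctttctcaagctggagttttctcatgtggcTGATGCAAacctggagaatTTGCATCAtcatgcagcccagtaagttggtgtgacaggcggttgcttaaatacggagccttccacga
Slc6a14: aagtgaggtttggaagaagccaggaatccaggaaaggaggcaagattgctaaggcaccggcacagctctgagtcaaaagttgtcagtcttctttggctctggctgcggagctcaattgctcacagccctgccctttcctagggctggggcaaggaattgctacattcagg

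The motif of Slc1a4 began 4 bases upstream of the start. Slc7a11 held 2 copies that began 66 and 47 bases upstream, facing each other. Of the measured carriers with the motif, Slc7a11 had a mean ratio of 0.08, Slc1a4 of -0.31 and Slc7a7 of 0.36. A match of letters is a description and not a binding site, and no array signal here reports on the promoters.

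Genes of the amino acid response outside the carriers were measured for 19 of the 21 on the array. Of these, 2 had ratios above 0 on both arrays, 3 were below 0 on both and 14 had opposite signs, with a median of -0.02. In the processed ratios of the scanner software the counts were 1, 9 and 9, with a median of -0.10, beside 21.1% of all genes below 0 on both. Chac1, an enzyme that degrades glutathione, had ratios of -0.35 and -1.29, a mean of -0.82 ± 0.67. Atf4, the factor of this response, had ratios of -0.16 and -0.16, and Sesn2, a stress-induced inhibitor of mTORC1, had a mean of -0.17 ± 0.07. Ddit3, a factor of the same stress response, had a mean of 0.08 ± 0.04. Trib3, the other gene above 0 on both arrays, had ratios of 0.59 and 0.02. limma called none of the 19 (adjusted p = 1 for Chac1, Atf4, Sesn2 and Ddit3, Benjamini-Hochberg). With the scanner software's ratios limma's adjusted p of Chac1 was 0.101.

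Lysosomal carriers, which pass amino acids and peptides out of the lysosome, counted 7 measured genes. Ratios were above 0 on both arrays for 1, Slc36a4, below 0 on both for 1, Slc36a1, and of opposite signs for 5. Slc36a4, a carrier of proline and tryptophan, had ratios of 0.23 and 0.24, a mean of 0.23 ± 0.01 with a 95% interval of -0.14 to 0.61. Its spots were close to background, with processed intensities of 59.3 and 39.2 for knockout and wild type in replicate 1 and of 81.5 and 59.3 in replicate 2. A second probe of Slc36a4 next to it lay below 0 on both arrays, with a mean of -0.10. The probes of this gene therefore disagreed in sign.

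Slc38a9, the lysosomal carrier through which arginine is sensed by mTORC1, had ratios of -0.14 and 0.11 at the brightest of its 4 tested probes. Another of them, A_52_P578768, had 0.78 and 0.02. The means of the 4 probes lay between -0.02 and 0.40. Of the 21 carriers with several tested probes, the means had one sign for 9 and both signs for 12.

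Carriers of neurotransmitters and related amino acids counted 10 measured genes of 15 on the array. Of these, 2 had ratios above 0 on both arrays, 1 was below 0 on both and 7 had opposite signs. Slc1a2, or GLT-1, the main glutamate carrier of astrocytes, had ratios of 0.11 and 0.29, a mean of 0.20 ± 0.13. Its spots were close to background, at 38.7 and 26.7 for knockout and wild type in replicate 1 and at 48.7 and 22.5 in replicate 2. Just 1 probe of Slc1a2 was tested, as its others did not pass the filter. The means of those others in the processed ratios had both signs. Slc6a7, a proline carrier of neurons, had ratios of 0.01 and 0.10, while Slc6a4, the serotonin carrier that gut epithelium uses as well, had 0.50 and -0.43.

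Among carriers outside these lists, Slc38a4 or SNAT4, a carrier of neutral amino acids, lay above 0 on both arrays at 0.10 and 0.26. Slc6a18 or B0AT3, a relative of Slc6a19 known from the kidney, lay below 0 on both at -0.17 and -0.32. Slc7a10 or Asc-1, an exchanger of small neutral amino acids, had -0.08 on both arrays, and Slc36a2 or PAT2 had -0.06 and -0.04. Slc38a11 and Slc7a4, whose substrates are less well known, were at -0.10 and -0.08 in replicate 1 and at 0.00 in replicate 2. Slc6a8, the creatine carrier, had ratios of 0.34 and -0.87, a mean of -0.26 ± 0.86. Over the 19 measured carriers outside the naming rule, means lay between -0.26 (Slc6a8) and 0.17 (Slc43a3, a nucleobase carrier), and 18 of the 19 had opposite signs on the arrays.

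A further 10 carriers on the array were not measured, among them Slc15a5, Slc1a7, Slc38a8, Slc6a2, Slc6a3, Slc6a5, Slc7a12, Slc7a13 and Slc7a2. Slc6a2, Slc6a3 and Slc6a5 are carriers of noradrenaline, dopamine and glycine in the nervous system. Slc6a3 and Slc7a2 were well above background on 1 array in each genotype, and the other named genes on neither.

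Proteins that brush border carriers work with, and carriers of other families, counted 11 measured genes, of which 2 had ratios above 0 on both arrays, 2 were below 0 on both and 7 had opposite signs. Anpep, an aminopeptidase that associates with Slc6a19, had 0.02 and 0.07. Slc9a3, the sodium-proton exchanger that keeps up the proton gradient used by Slc15a1 and Slc36a1, had -0.11 and -0.74, a mean of -0.42 ± 0.44. Slc6a20b, a relative of the imino acid carrier, had 0.01 and 0.04.

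Gut peptidases, which cut peptides at the brush border, in the epithelium or in the lumen, counted 17 measured genes. Of these, 2 lay above 0 on both arrays, 3 below 0 on both and 12 had opposite signs, with a median of -0.03. Dpep1, a membrane dipeptidase, had a mean of -0.14 ± 0.11 and Tmprss15, the enterokinase that activates trypsinogen, a mean of 0.06 ± 0.03. Naalad2, a peptidase related to glutamate carboxypeptidase, had a mean of -0.07 ± 0.08. None of these genes was called by limma with Benjamini-Hochberg adjustment.

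Markers of gut regions and of other cell types were compared beside these carriers. Lct and Fabp1, markers of the proximal small intestine, had means of 1.41 ± 0.61 and 1.28 ± 0.01, and limma called both in the processed ratios (Benjamini-Hochberg adjusted p = 0.000833 and 0.00833) and neither in the loess ratios. Of the 7 measured proximal markers 3 were above 0 on both arrays, 1 (Slc40a1, at -0.56 and -0.13) was below 0 on both and 3 had opposite signs, with a median of 0.00. Gna14 and Fgf15, markers of the distal small intestine, had means of -0.69 ± 0.14 and -0.49 ± 0.23. Of the 9 measured distal markers 3 were below 0 on both arrays and 0 above. The other 6, Fabp6 and Slc10a2 among them, had opposite signs. Of 11 B and T cell markers 9 were above 0 on both arrays and 0 below (median 0.33). Of 9 skeletal muscle markers 7 were above 0 on both and 2 below (median 0.78). limma called 6 of these 9 in the processed ratios, beside 0.2% of all genes, and 0 in the loess ratios. Of 5 Paneth cell markers 4 were below 0 on both and 0 above (median -0.25). Among all genes 16.9% were above 0 on both and 18.1% below. The epithelial list had 3 above, 3 below and 5 of opposite signs. In the same order, colon markers had 3, 0 and 3, and exocrine pancreas markers 0, 3 and 6. Enteric neurons and glia had 0, 2 and 8, smooth muscle 0, 0 and 6, and enterochromaffin cells 1, 1 and 4. The part of these markers in the ratios of the carriers was not tested.

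The processed ratios of the scanner software gave the same carriers other sizes. With them limma called 38 genes in all (0.2%) and 0 carriers, and an unadjusted p under 0.05 was reached by 945 genes (4.98%) and 5 carriers, which were Slc1a2, Slc6a14, Slc6a18, Slc38a3 and Slc36a4. A difference of 1.3-fold or more that pointed to one genotype on both arrays was found for Slc1a2, Slc36a4 and Slc6a14, 3 carriers (5.56%) beside 2.78% of all genes. At 1.5-fold or more there were 0, beside 0.837%. Ratios were below 0 on both arrays for 19 carriers (35.2%), beside 21.1% of all genes, above 0 on both for 4 (7.41%), beside 20.2%, and of opposite signs for 31 (57.4%), beside 58.7%. Below 0 on both arrays under both ways of processing were 11 carriers, and above 0 under both were 4.

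Several carriers close to background differed most between the ways of processing. The mean of Slc1a2 was 0.20 in the normexp and loess ratios, which add an offset of 50 to each intensity, 0.53 with an offset of 0, and 0.82 in the processed ratios. That of Slc38a3 was -0.04 after loess and -0.57 in the processed ratios, and that of Slc6a18 was -0.25 and -0.60. In 17 carriers all 4 processed intensities were under 100, and the median size of their mean ratio was 0.05 after loess and 0.18 in the processed ratios. In the other 37 it was 0.06 and 0.09.

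**Figure D4:**
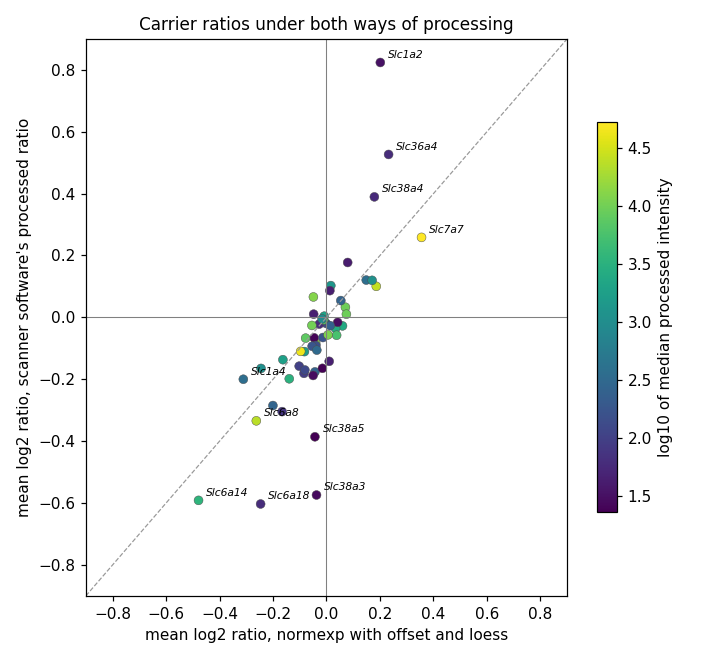
Mean log2 ratio of both arrays for the 54 carriers after normexp with an offset and loess (x axis) and in the processed ratios of the scanner software (y axis); the colour gives the log10 of the median processed intensity, and the dashed line marks equal values. The carriers farthest from the line are dark, close to background, with Slc1a2 at 0.20 and 0.82 and Slc38a3 at -0.04 and -0.57.

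The ratios were recomputed in 7 ways that touch every spot, the loess ratios included. Ratios were below 0 on both arrays in all 7 for 5 carriers, Slc1a4, Slc36a1, Slc6a18, Slc7a3 and Slc7a5. They were above 0 in all 7 for 3, Slc1a2, Slc36a4 and Slc38a4. Those 3, and Slc6a18 and Slc7a3, are among the dim carriers with all 4 processed intensities under 100. One sign in 6 of the 7 was found for Slc6a14, Slc7a10, Slc36a2 and Slc43a1, below 0, and for Slc7a7, above 0. With median centring in place of loess, Slc6a14 had ratios of 0.12 and -1.16. The means of Slc6a14 lay between -0.59 and -0.48 and those of Slc7a7 between 0.26 and 0.48. Taking the mean of its probes in place of the brightest gave Slc36a4 a mean of 0.07 and Slc6a14 a mean of -0.43. The smallest Benjamini-Hochberg adjusted p in limma that any of these 13 carriers reached was 0.228, for Slc1a2 in the processed ratios, and other ways gave it values up to 1. The 7 ways start from the same 2 arrays, so a sign kept over them is no replicate of it.

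**Figure D5:**
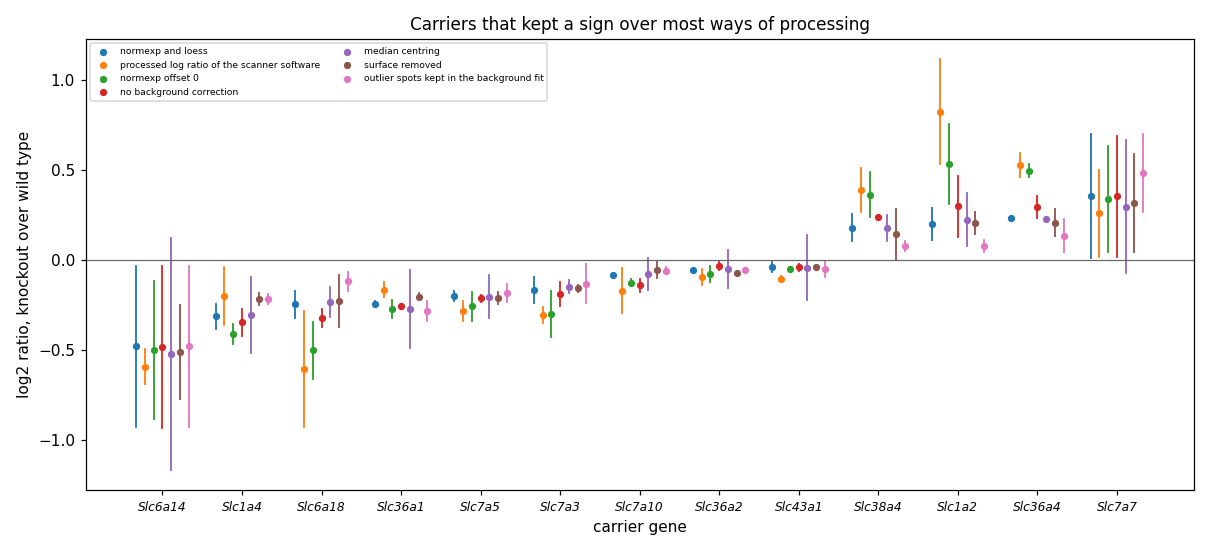
Log2 ratio of knockout over wild type by label (y axis) for the 13 carriers that kept a sign on both arrays in at least 6 of 7 ways of processing (x axis, ordered by the mean of the loess ratios); each point is the mean of both arrays, its colour names the way of processing, and its line joins the values of the arrays. Slc6a14 has means from -0.59 to -0.48 but long lines, and those of Slc7a5 and Slc36a1 lie below 0 throughout.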

How the data were processed

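Intensity values in the authors' deposited files come, per the file headers, from Agilent Feature Extraction 11.5.1.1 for each spot and channel of 2 dual-colour arrays (design 14868). The submitters' processing notes name version 9.5. The deposited log10 ratio column gives processed Cy5 over processed Cy3, and a deposited p-value column the software's error model for one spot. A further deposited table repeats these log10 ratios to within 5e-04 and was not used.

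Spots marked as outliers were left out (133 and 222, none of a carrier). Mean and background intensities were corrected with normexp (offset 50) and normalised by loess within each array in limma 3.58.1 (R 4.3.3), with control spots at weight 0. The log2 ratio was turned to knockout over wild type by the labels' dyes. A probe was kept if the software marked one genotype as well above background on each array, and a gene was represented by its brightest probe. Symbols were brought up to date through RefSeq for 29416 probes. limma's lmFit and eBayes tested the mean against 0 (1 residual degree of freedom, 3.01 from the prior), and p-values of all 18988 genes were adjusted by Benjamini-Hochberg with a threshold of 0.05. Genes past 1.5-fold or 1.3-fold in one direction on both arrays were also counted. In simulated data on 19006 genes, limma recovered 0 of 200 genes changed 2-fold and 160 of 200 changed 4-fold, and the count at 1.5-fold on both arrays recovered 175 and 200.

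The alternatives were the scanner software's processed ratio, turned and put on log2, and other choices of background, normalisation, filter, probe and array. The carriers and gene lists were chosen with earlier results of these data known. Named are all carriers of the peptide, brush border, basolateral and shortage lists. Also named are up to 4 carriers per family and 4 genes per related list with the largest smaller ratio of one sign. Chosen after their values were seen were Slc6a4, Slc6a8, Slc7a4, Slc38a9, Slc43a3, Trib3 and the markers of gut regions. Coordinates of probes are those of the design on mm9, and promoter sequences are RefSeq's on GRCm38.p6. Protein sequences were not used here. Single genes that the naming rule covers but the text leaves out are not reported here.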

Additional observations from a re-analysis of the deposited data

How the results depend on the processing

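Of the results on the carriers, the number called by limma was 0 in each setting that allowed a test. The median ratio of the carriers lay between -0.06 and -0.01 in these settings, beside -0.03 in the loess ratios. These differences were smaller than the median SD of single carriers between the arrays, 0.21. That SD is much larger than the median ratio itself, so the comparison says little. The calls over all genes moved from 0 to 38 with the processed ratios, 22 with a normexp offset of 0 and 13 with the array surface removed. Carriers at least 1.3-fold apart on both arrays moved from 0 to 3 with the processed ratios and to 1, Slc36a4, with a normexp offset of 0. Median centring gave 3 carriers above 0 on both arrays and 7 below. The cause of these moves was not tested. With replicate 1 or replicate 2 left out, a value of 1 array with no test, the carriers at least 1.5-fold apart were 3 and 3, those at least 1.3-fold apart 9 and 9, those above 0 between 19 and 27 and those below 0 between 27 and 35. The median ratio then lay between -0.10 and 0.00. Both genotypes lie on each array, so the ratio within an array is already paired and no further block was fitted. Spots close to background limit 17 carriers.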
